A study of Rattus norvegicus with 415 samples.

Results

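Leptin (Lep, ENSRNOG00000005597) and adiponectin (Adipoq, ENSRNOG00000001821) are hormones made by fat cells. Both genes were chosen by identifier, and 1 of the 2 had values to analyse among the 18358 genes of the expression table: Adipoq. Lep was not analysed here, so the results describe Adipoq alone, and no relation between both hormones is given. The table covered 415 samples of adipose tissue from outbred rats aged 17 weeks, and the labels give them 1 tissue label and no treatment, diet, genotype, sex or fat depot. The samples therefore formed 1 group (n = 415), and the only labels that divide them are a number and a suffix in the sample title, whose meaning is not given. Nothing in the labels says that 2 samples came from 2 animals.

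Adiponectin is secreted almost exclusively by adipocytes, circulates as trimers and larger multimers, and acts through the receptors AdipoR1 and AdipoR2 on fatty acid oxidation and insulin sensitivity. Its level in plasma is known to be lower in obesity, while leptin, which signals the size of the fat stores to the hypothalamus, is higher. Transcription of Adipoq rises during fat cell differentiation under PPARγ and C/EBP factors. The table gives identifiers without symbols, so the receptors, regulators, other adipokines and markers of adipocytes and other cell types could not be looked up by name and have no values here. The tissue label was therefore not checked against a marker list. In bulk tissue, fewer adipocytes and less Adipoq RNA per adipocyte cannot be told apart.

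The gene lies on the minus strand of chromosome 11 in the RefSeq assembly GRCr8, which need not be the build of the expression table. The 175 bases upstream of the gene at chr11:91240245-91240419, which span from 250 to 76 bases before the RefSeq start site, are shown to locate the gene whose RNA was measured. Capitals mark matches to CANNTG, the E-box, a motif that basic helix-loop-helix factors are known to bind.

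Adipoq upstream: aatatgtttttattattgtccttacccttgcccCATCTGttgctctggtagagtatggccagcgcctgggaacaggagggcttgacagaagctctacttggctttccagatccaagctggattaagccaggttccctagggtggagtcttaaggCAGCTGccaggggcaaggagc

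The GC content of this window was 52%. It held 2 E-boxes, and 53.5% of the 33465 RefSeq promoter windows of the same length held at least 1 on either strand. The letters CCAAT (in 25.2% of windows), TATAAA (8.79%) and AGGTCA (9.66%) had 0 matches on either strand of the Adipoq window. These matches describe the sequence of this window only. It stops 76 bases before the start site, and bases nearer to that site were not searched.

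By its deposited values Adipoq was among the highest genes of the table. Its level had a mean of 188 FPKM ± 28.0 (SD, n = 415), where FPKM is fragments per kilobase of gene length scaled to the depth of the sample, and ranked 23rd of 18358 genes by mean FPKM. The lowest sample was at 136 FPKM, the median at 184 and the highest at 376, a 2.77-fold range. Within a sample Adipoq ranked between 15th and 50th, with a median rank of 26. In 391 of 415 samples the level lay between 150 and 250 FPKM, and 5 samples exceeded 300 FPKM.

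The FPKM values are whole numbers of reads divided by gene length and by 1 factor per sample, so the reads behind each value could be recovered. Adipoq had 1535 reads in the lowest sample, 1741 in the median sample and 1901 in the highest, a 1.24-fold range over its 2039 bp. The reads in all genes ranged 2.92-fold, from 2139163 to 6248214 with a median of 4602134. The coefficient of variation was 3.57% for Adipoq reads and 12.1% for reads in all genes. Adipoq thus took 0.0731% of the reads in the shallowest sample, 0.0293% in the deepest and a median of 0.0376%.

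The level of Adipoq followed sequencing depth closely. The 5 samples under 3000000 reads had a median of 342 FPKM (range 321 to 376) and a median of 1599 Adipoq reads. The 37 samples from 3000000 to 4000000 reads had a median of 226 FPKM and 1709 Adipoq reads. The 126 samples from 4000000 to 4500000 had a median of 199 FPKM and 1719 reads. The level kept falling while the reads hardly moved: the 153 samples from 4500000 to 5000000 reads had medians of 180 FPKM and 1749 reads. In the 94 samples of 5000000 reads or more the medians were 164 FPKM and 1771 reads, and no sample of this class, at 136 to 180 FPKM, overlapped the samples under 4000000 reads. The shallowest sample, number 60444 with suffix 5, had the highest level, 376 FPKM from 1564 reads. The deepest, number 62506 with suffix 4, had the lowest level, 136 FPKM from 1832 reads.

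**Figure D1:**
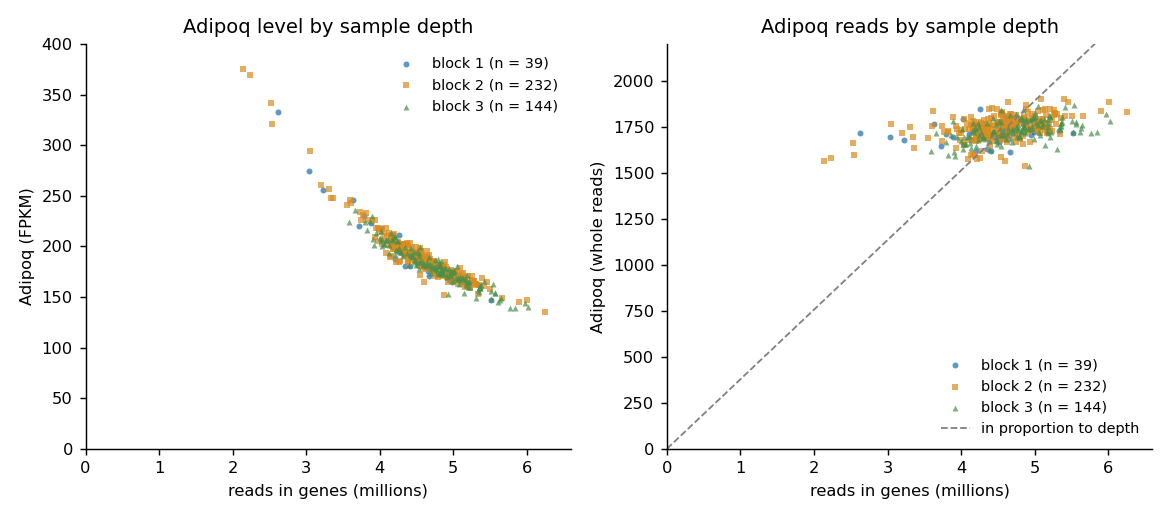
Adipoq in each of the 415 samples against the reads in all genes of that sample, as FPKM on the left and as whole reads on the right; colours and symbols mark the 3 blocks of title numbers. The level falls from 376 FPKM in the shallowest sample to 136 FPKM in the deepest, while the reads stay between 1535 and 1901 and do not follow the dashed line, which shows growth in proportion to depth through the median sample.

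Across samples, log2(FPKM + 1) of Adipoq and log2 reads in genes had a Pearson r of -0.97 (Spearman rho -0.95, n = 415, permutation p = 1e-05 for each, the smallest that 100000 permutations can give, adjusted p = 1.09e-05 over 12 correlations). Leaving out the 2 samples of most extreme depth, r was -0.97. Within the 3 blocks, runs of title numbers parted by gaps above 500, r was -0.98 (n = 39), -0.97 (n = 232) and -0.96 (n = 144). The slope of log2(FPKM + 1) on log2 reads was -1.03 (SE 0.0351), -0.96 (SE 0.0151) and -0.96 (SE 0.0237), and the difference between blocks did not pass the test (permutation p = 0.136, F = 1.99). Among the 16131 genes kept for testing, which passed 1 FPKM in 20% or more of the samples, Adipoq had the 2nd lowest r with depth. There were 58 genes with r below -0.9, and the median r was 0.06.

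The reads of Adipoq themselves rose weakly with depth, with r = 0.44 (rho 0.44, permutation p = 1e-05, adjusted p = 1.09e-05; 0.40 without the 2 farthest samples). This relation held within block 2 (r = 0.48) and block 3 (r = 0.50) and did not pass the test in block 1 (r = 0.19, permutation p = 0.253). Where reads grow in proportion to depth, log2 reads regressed on the log2 factor of the sample have a slope of 1. The slope was 0.11 (SE 0.0109) for Adipoq, and 0.04, 0.13 and 0.14 within the blocks. It was the 10th lowest of 6808 genes with at least 200 mean reads, whose median was 0.98. Adipoq was also 24th of these genes in read density, with a mean of 0.853 reads per bp and at most 0.932. The 70 other genes with at least 0.7 reads per bp had slopes from 0.05 to 0.52, with a median of 0.27, so the low slope was shared by the other densely covered genes. Why densely covered genes gained few reads with depth was not tested.

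**Figure D2:**
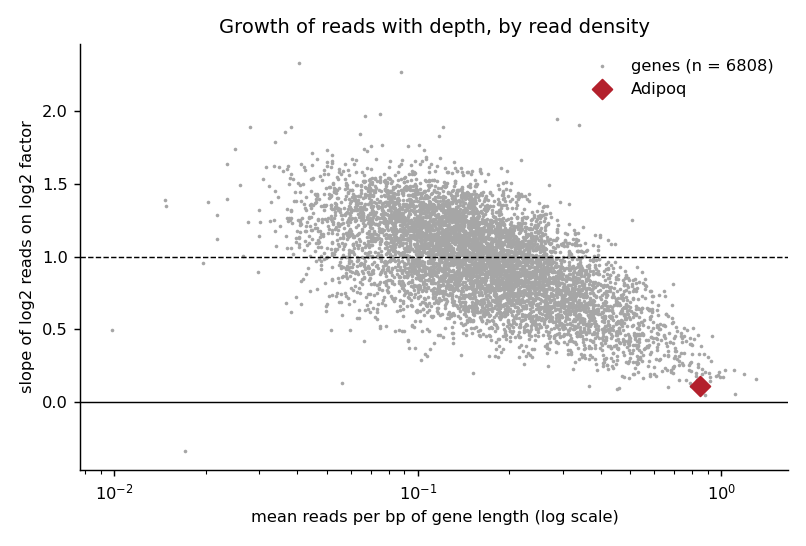
Slope of log2 reads against the log2 factor of each sample for 6808 genes with at least 200 mean reads (grey) and Adipoq (red diamond) against mean reads per bp of gene length (log scale); the dashed line at 1 is growth in proportion to depth. Slopes fall at high density, and Adipoq lies at 0.853 reads per bp and a slope of 0.11.

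With depth removed by a linear fit, the deposited values of Adipoq varied little between samples. These values were compressed: the reads hardly grew with depth and stayed at or below 0.932 per bp, as the low slopes above show, so a small SD here does not show that the RNA itself varied little. The SD of log2(FPKM + 1) fell from 0.19 to 0.05, and 94.3% of the variance went with depth. Before the fit Adipoq ranked 5969th from the lowest SD of 16131 genes (median 0.24), and after it 3rd lowest (median 0.23). In a linear fit of log2 reads, instead of log2 FPKM, on depth, the residual SD was 0.0467. Poisson counting error alone would give an SD of 0.0346, or 54.8% of that residual variance. At equal depth, the slope of any gene on Adipoq rests on the small remainder left by the depth fit. In the fit of log2 reads, the ratio of residual to Poisson variance was 1.82 for Adipoq, 618th from the lowest. Its median over the 6808 genes was 4.79. Compressed reads need not have Poisson error, and whether they did was not tested.

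The depth-removed values ran from -0.20 to 0.09 on the log2 scale. Depth was the reads in genes, while FPKM was divided by the sample factor, so differences between both stayed in these values. Number 63966 with suffix 4 was at 0.08 from 1693 Adipoq reads and a depth of 4791523. Number 64249 with suffix 4 was at -0.04 from 1700 Adipoq reads and a depth of 4787950. They were below -0.1 in 12 samples and above 0.1 in 0 samples. The lowest was number 62335 with suffix 3, at -0.20 from 1538 reads, followed by number 64199 with suffix 4 at -0.17 from 1535 reads. By the mean depth-removed value of the 70 other densely covered genes, these 2 samples ranked 5th and 1st lowest of 415. Over the 12 low samples that rank had a median of 13 and ran from 1 to 183. The other dense genes were not low in each of them: number 62769 with suffix 6, at -0.13 for Adipoq, ranked 183rd, and number 62818 with suffix 6, at -0.13, ranked 73rd. Over all samples the depth-removed value of Adipoq had an r of 0.72 with that mean (rho 0.70, permutation p = 1e-05, adjusted p = 1.09e-05; 0.70 without the 2 farthest samples). Within blocks r was 0.75, 0.68 and 0.80. All genes of a sample are divided by the same factor, and its part in the depth-removed r values was not tested.

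The question of whether Adipoq drifted along the title numbers was addressed with limma on log2(FPKM + 1) over all kept genes. The slope was taken on the rank of the title number, so uneven gaps between numbers do not count. Adipoq fell by 0.18 log2 units from the lowest to the highest rank (adjusted p = 3.19e-08). Of all genes tested, 61.3% changed along the ranks in either direction. With log2 reads as a covariate the slope was -0.01 (adjusted p = 0.489), where 51% of genes were called. Without the 12 samples under 3500000 reads the slope was -0.09, and after quantile normalization -0.03. Within blocks the slope was taken per range of ranks in the block and without log2 reads as a covariate. It was -0.12 in block 1 (adjusted p = 0.699), -0.18 in block 2 (adjusted p = 8.63e-05) and -0.04 in block 3 (adjusted p = 0.638). Of 16131 genes, 0 were called in block 1 (n = 39), 9125 in block 2 (n = 232) and 1053 in block 3 (n = 144).

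The level was 196 FPKM ± 35.1 (SD, n = 39) in block 1, 191 FPKM ± 30.1 (n = 232) in block 2 and 181 FPKM ± 19.8 (n = 144) in block 3, and the ranges overlapped. The highest and lowest block means of Adipoq differed by 0.11 log2 units (limma F test, adjusted p = 0.000405), and 53% of genes passed the same test. This spread was 0.64 over the 7 blocks cut at gaps above 250 (adjusted p = 5.85e-24), where 11772 of 16131 genes were called. These 7 blocks were uneven. The first held only the samples of numbers 57215 and 57241, at 147 to 208 FPKM. Numbers 60213 to 60650 made up another, which held the shallowest sample at 376 FPKM. The 7 blocks were not run with log2 reads as a covariate. Over the 3 blocks the spread was 0.06 without the 12 shallow samples (adjusted p = 0.00978, 7701 genes called). After quantile normalization it was 0.02 (adjusted p = 0.000289, 8374 genes called). With log2 reads as a covariate the spread over the 3 blocks was 0.02 (adjusted p = 0.0548), with 41.7% of genes called. Block 3 minus block 1 then went from -0.11 to 0.01 and did not pass (limma adjusted p = 0.52). The 17 samples with numbers from 60213 to 61163, singled out after their values were seen, had a median of 248 FPKM against 183 FPKM in the other 398. Their Adipoq reads were close, with medians of 1715 and 1742, and their depth-removed means were 0.0011 and -0.00005 log2 units.

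**Figure D3:**
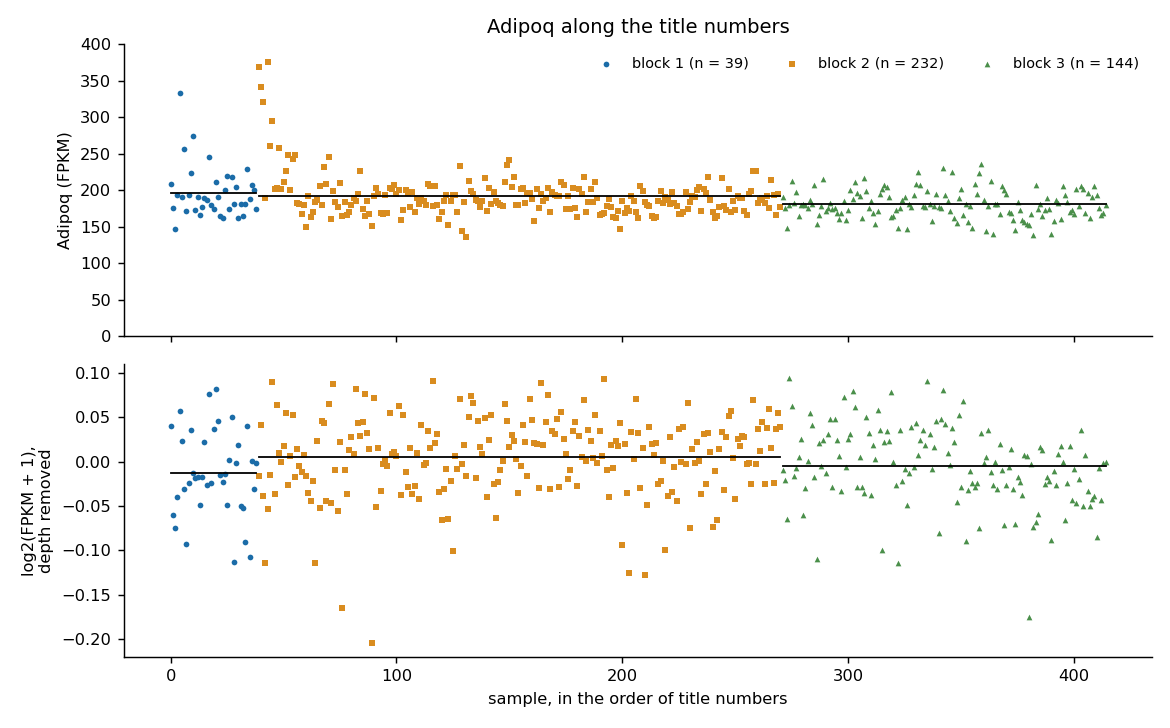
Adipoq in the 415 samples in the order of their title numbers, as FPKM (top) and as log2(FPKM + 1) with depth removed (bottom); colours mark blocks and black lines the block means. The samples above 300 FPKM stand early in the order, and the depth-removed values run from -0.20 to 0.09 without them standing apart.

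Of the 318 title numbers, 81 stood on 2 samples and 8 on 3, which gave 105 pairs. Samples with the same number resembled each other in Adipoq, with an intraclass correlation of 0.40 on log2(FPKM + 1) (limma F test over numbers, adjusted p = 0.000161). It was 0.26 without the 12 samples under 3500000 reads (adjusted p = 0.0126), and after quantile normalization it was 0.17 and did not pass (adjusted p = 0.323). The same test called 57.5% of genes, the median correlation was 0.23, and Adipoq ranked 2786th. The reads in all genes had a same-number correlation of 0.46. With depth removed first, the correlation of Adipoq was -0.01 (adjusted p = 0.853), and 49.5% of genes were still called, with a median of 0.20. Adipoq then ranked 14829th of 16131. The compression of its values holds for this comparison too, so the low correlation does not show that such samples were unlike in Adipoq RNA.

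Number 60444 shows this in its 3 samples. They had 189, 376 and 261 FPKM from 1596, 1564 and 1715 Adipoq reads, at depths of 4139407, 2139163 and 3201606 reads. The levels thus ran in the inverse order of depth while the reads were close. This number holds the shallowest sample and the widest difference of any pair, 186 FPKM. Of the 8 numbers on 3 samples, 63032 and 64003 departed from the inverse order. Over all pairs the median difference was 16.2 FPKM, or 0.13 log2 units, against 0.14 for neighbouring samples with different numbers. With depth removed both medians were 0.04.

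**Figure D4:**
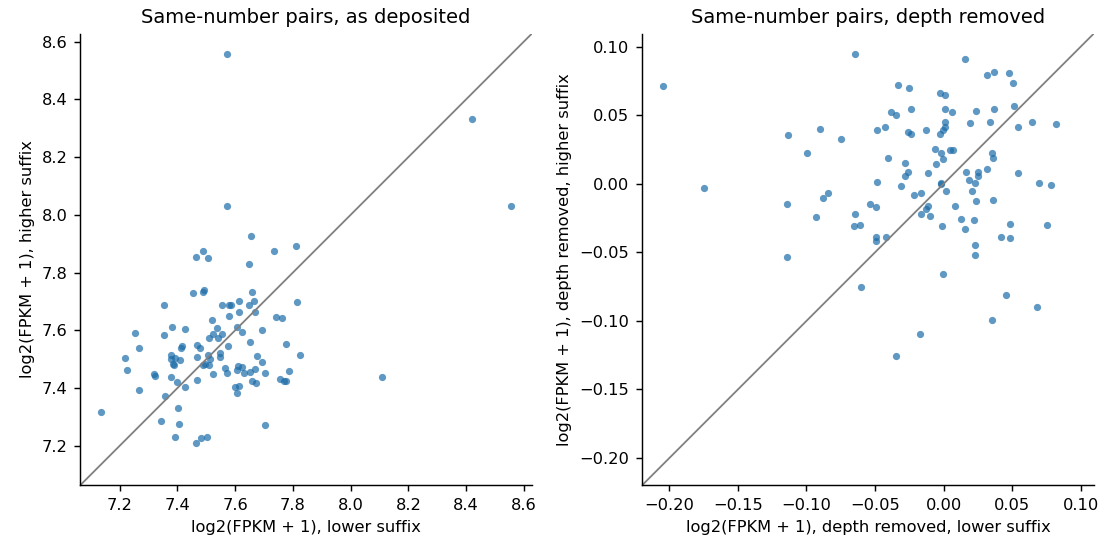
The 105 pairs of samples with the same title number, the sample with the lower suffix on the x axis and that with the higher suffix on the y axis, as log2(FPKM + 1) on the left and with depth removed on the right; the line marks equality. The intraclass correlation is 0.40 on the left and -0.01 on the right.

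Samples with suffix 3 had 190 FPKM ± 30.3 (SD, n = 175) and samples with suffix 4 had 185 FPKM ± 21.0 (n = 178). The difference, suffix 4 minus suffix 3, was -0.03 log2 units (SE 0.0192, limma adjusted p = 1) and did not pass the test. The test called 0% of genes. At an unadjusted p under 0.05 limma gave 364 of 16131 genes, and voom on the recovered reads gave 346 with 0 called after adjustment.

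Genes that changed with Adipoq at equal depth were sought with limma, as the slope on Adipoq with log2 reads as a covariate. Of the other 16130 genes, 26.8% (4325) rose and 32.6% (5254) fell with it. After quantile normalization the split was 3124 up and 1514 down. The gene most like Adipoq was ENSRNOG00000010079, with r = 0.79 over 415 samples after depth was removed from both (adjusted p = 2.49e-75, 262 FPKM ± 35.0). ENSRNOG00000000158 was next, with r = 0.71 and 193 FPKM ± 28.8. The lowest were ENSRNOG00000009360, with r = -0.54 and 8.10 FPKM ± 4.02, and ENSRNOG00000009722, with r = -0.54 and 20.4 FPKM ± 6.10. After quantile normalization these 4 values of r were 0.28, 0.44, -0.15 and -0.17. The table does not pair these identifiers with names.

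Read density moved with this likeness. The 2 most alike genes had 1.19 and 0.875 reads per bp, and the 2 least alike had 0.0376 and 0.0947. Among the 16130 genes tested here, which also include genes under 200 mean reads, 72 had at least 0.7 reads per bp, and 70 of them rose with Adipoq and 0 fell. Of the 2081 genes under 0.01 reads per bp, 7.40% rose and 40.5% fell. Among the 100 genes with the highest r, 90 had at least 0.3 reads per bp, against 7.31% of all genes, and 0 of the 100 with the lowest r had it. The part of read density in these counts was not tested further.

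**Figure D5:**
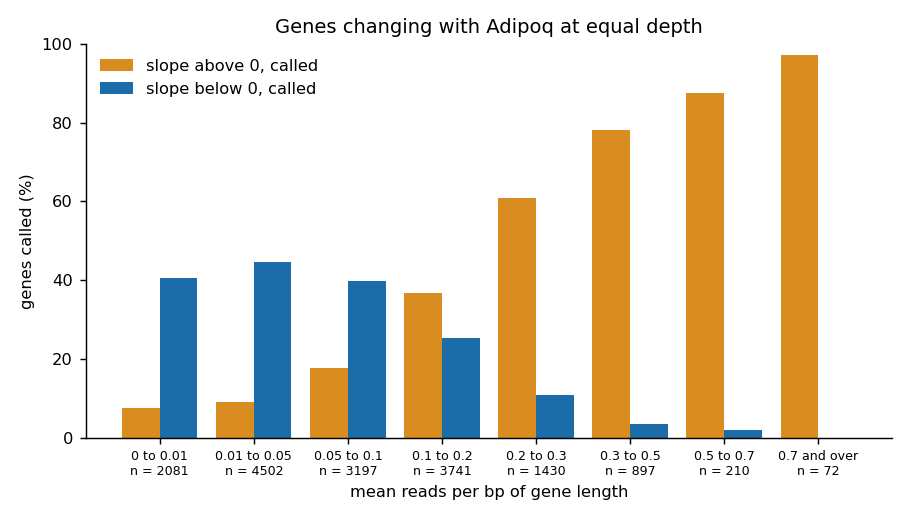
Percent of genes that limma called with a slope above 0 (orange) or below 0 (blue) on Adipoq at equal depth, in 8 classes of mean reads per bp of gene length, with the number of genes in each class. The share that rose goes from 7.40% in the sparsest class to 97.2% in the densest.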

How the data were processed

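RNA from snap-frozen adipose tissue was extracted with Trizol and sequenced as 75 bp single-end reads on an Illumina HiSeq instrument, per the labels' protocols. The submitters' processing notes name STAR, Picard, featureCounts and DESeq2 without role or version; the genome build is not given in the sources used here. The deposited table has no stated unit. From its values, the authors' numbers are FPKM: whole reads divided by gene length and a median-of-ratios sample factor. Whole reads were recovered for 100% of values (tolerance 0.001 reads).

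Values were analysed as log2(FPKM + 1), a scale that understates changes of low genes, for the 16131 genes above 1 FPKM in at least 20% of samples. Tests used limma 3.58.1 in R 4.3.3 with Benjamini-Hochberg adjustment over all genes, and correlations used 100000 permutations. Python 3.11.15, numpy 2.4.6, scipy 1.17.1 and pandas 2.3.3 were used. The scripts were checked on simulated data, with effects of 0.5 gene SD in 200 genes. The slope on Adipoq found 100% of these genes where the effect was scaled to the SD of depth-removed Adipoq. It found 5.5% where the effect was scaled to the SD of Adipoq as deposited. Depth was the log2 of reads in genes. P-values measure the spread between these samples, and samples sharing a title number may not be independent.

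The genes named besides Adipoq are those with the highest and lowest r with it after depth removal, 2 in each direction. The members, lists and tests were chosen with earlier results of these data known. The depth and density classes, the limits of 0.7 and 0.3 reads per bp, the stretch of 17 samples and the family of 12 correlations were chosen after the values were seen. Alternatives covered pseudocount, filter, scaling, voom, depth, shared numbers, blocks and shallow samples.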

Additional observations from a re-analysis of the deposited data

How the results depend on the processing

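The relation of Adipoq to depth kept its direction and passed its test under every alternative run; r was -0.47 after quantile normalization and -0.95 without the 12 samples under 3500000 reads. The trend along title numbers no longer passed with log2 reads as a covariate (-0.00712) or within block 1 (-0.122) and block 3 (-0.0397). The block spread no longer passed with log2 reads (0.0181); it passed at 0.639 with 7 blocks from gaps above 250, 0.0621 without the shallow samples and 0.0194 after quantile normalization. This spread, the highest minus the lowest block mean, replaced the signed difference of the last and first block after the values were seen. The signed difference was -0.109 (limma adjusted p = 0.00457). It changed sign and did not pass with log2 reads (0.00776, SE 0.00855) or with 7 blocks from gaps above 250 (0.0379, SE 0.0956). The first of those 7 blocks held only numbers 57215 and 57241. The signed difference also did not pass after quantile normalization (-0.0148) or without the shallow samples (-0.0621). The same-number correlation was 0.262 without the shallow samples and did not pass after quantile normalization (0.171). It was -0.0145 with log2 reads removed (limma F test, adjusted p = 0.853). With a spline of title rank and log2 reads removed it was -0.117 (adjusted p = 0.973), and neither passed. The suffix difference, which passed under no setting run, was 0.000924 (SE 0.00509) with log2 reads. No replicate block could pair groups, since there is 1 group; with the title number as a block, the suffix difference was -0.00528. Genes changing with Adipoq numbered 4638 after quantile normalization against 9579. The SD of log2 FPKM was 0.173 with plain total scaling, 0.0455 with depth removed, linear or cubic, and 0.15 without the shallow samples. Of 32 values of r for the 4 named genes, 24 moved by less than 0.1, 8 moved by more and 0 reversed. Chosen after seeing the data were cubic depth, the spline with log2 reads, single blocks for the trend, the block covariate for the suffix, voom for the relation to depth, and leaving out shallow samples for all results but the relation to depth. Adipoq and depth are nearly collinear, which limits every depth-adjusted value. Where a result changed, the cause was not tested beyond the depth values given. Alternatives for Lep were not run.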
